A study of Mus musculus with 8 samples.

Results

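Bulk RNA-seq of mouse small intestine was used to follow 10 genes of the mesenchyme, the connective tissue that lies under the gut epithelium, in preparations meant to hold epithelium. The genes were *Dcn*, *Lum*, *Col1a1*, *Col1a2*, *Col3a1*, *Col6a1*, *Vim*, *Acta2*, *Tagln* and *Myl9*, chosen by symbol as a measure of the stromal RNA in each library. In the crypts 7 of the 10 were listed, among 11554 genes, and in the villi 8 of the 10, among 12701 genes. *Tagln* and *Myl9* were not analysed here in either tissue, and *Acta2* not in the crypts. The crypt table held no gene with a mean under 48.4 normalized counts and the villus table none under 8.82, so members listed had passed a filter on low values.

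The series compared C57BL/6 mice 1 month after tamoxifen. Per the labels, Ctrl mice carried the driver Gli1-CreERT2 and a Rosa26-tdTomato reporter, under the genotype tag WT. A figure legend of the study instead describes Ctrl mice with both floxed genes and no Cre. In Gli1-PtgscKO mice (cKO hereafter), Gli1-CreERT2 deletes floxed alleles of *Ptgs1* and *Ptgs2*, which encode the prostaglandin-forming enzymes COX1 and COX2, in cells that express *Gli1*. *Gli1* marks mesenchymal cells in this tissue, so the deletion is in the same compartment as the 10 genes and not in the epithelium. Neither the age of the mice nor a litter or day common to libraries of 1 number is given in the sources used here. The design text says that crypts and villi were sorted, the labels speak of fresh epithelial cells, and no marker for a sort is named.

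There were 4 crypt libraries, 2 from each genotype. The 2 Ctrl villus columns held identical values for all 12701 genes and were counted as 1 library, so the villi gave 1 Ctrl and 2 cKO libraries. Reads on listed genes numbered 16853017 to 21121714 in the crypts and 13477600 to 15751024 in the villi. The general epithelial list (10 of 10 listed, with *Krt8*, *Krt19* and *Lgals4* highest) took 10403 to 15428 counts per 1000000 reads (CPM) in the crypts and 13402 to 17887 in the villi. The 8 crypt markers, led by the Paneth cell genes *Lyz1* and *Defa24* and the stem cell gene *Olfm4*, took 19108 to 31314 CPM in crypts against 520 to 1086 in villi. The 8 villus markers, led by the enterocyte genes *Sis*, *Mttp* and *Apoa1*, took 3558 to 5145 CPM in crypts against 17347 to 22338 in villi. Each list was higher in every library of its own tissue than in any library of the other.

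The mesenchyme builds the matrix on which crypts and villi stand. Fibroblasts secrete fibrous collagens and small proteoglycans that space the fibres, and they signal to the stem cells of the crypt. Myofibroblasts and smooth muscle cells carry contractile proteins in addition. Epithelial cells make little or none of these proteins, so their transcripts in an epithelial preparation come as a rule from other cells that were carried along. In bulk libraries such as these, fewer cells of a type and less RNA per cell cannot be told apart.

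The members fall into 4 roles. *Col1a1* (chr11:94936224-94953042, GRCm38, GENCODE M21) and *Col1a2* (chr6:4504814-4541544) encode the chains of type I collagen. *Col3a1* (chr1:45311538-45349706) encodes type III collagen, which forms fibres together with type I, and *Col6a1* (chr10:76708792-76726168) a chain of the beaded filaments of type VI collagen. *Dcn* (chr10:97479609-97518143) and *Lum* (chr10:97565128-97572703), which lie beside each other, encode decorin and lumican, proteoglycans that bind collagen fibres. *Vim* (chr2:13573927-13582826) encodes vimentin, the intermediate filament of mesenchymal cells that also occurs in leukocytes and endothelium. *Acta2* (chr19:34241090-34255590), *Tagln* (chr9:45929619-45936058) and *Myl9* (chr2:156775420-156781658) encode smooth muscle actin, transgelin and a myosin light chain, and *Tagln* overlaps genes on the opposite strand. On the same strand, *Col1a2* overlaps the annotated gene *Gm43921* and *Col3a1* overlaps *Gm47302*, and any effect on their counts was not tested.

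Promoter sequence was matched by symbol for 6 of the 10 genes (*Col1a2*, *Col3a1*, *Col6a1*, *Vim*, *Acta2* and *Myl9*) in the RefSeq table of build GRCm38.p6. *Dcn*, *Lum*, *Col1a1* and *Tagln* had no entry. The 150 bases before the start of *Col3a1* are shown because it was the collagen with the highest level in all 7 libraries and because this stretch touches no annotated exon. It lies at chr1:45311388-45311537 on the plus strand, and the capitals mark the letters TATAAA.

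Col3a1: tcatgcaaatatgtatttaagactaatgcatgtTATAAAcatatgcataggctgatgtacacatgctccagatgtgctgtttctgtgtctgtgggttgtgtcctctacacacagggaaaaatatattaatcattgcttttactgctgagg

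TATAAA was searched on both strands of the 150 bases and began 117 bases before the start of *Col3a1* and 32 bases before that of *Vim*. These letters are in 7.57% of the 32851 promoters of the same length. CCAAT, with no overlap with the other motifs, was found 109 bases before the start of *Col1a2* and, on the minus strand, 94 bases before that of *Vim*, and is in 24.5% of all promoters. GGGCGG was found 3 times in *Myl9* and is in 28.6%. The CArG box, the binding motif of serum response factor, was searched in its strict form with no base allowed to differ. It had no match in the 6 windows and one in 0.916% of all promoters, and forms that differ from it by a base were not searched. A match of letters is a description and not a site that was shown to act.

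The deleted gene was looked at first. For *Ptgs1* the Ctrl crypts gave 365.5 and 163.8 normalized counts, and the cKO crypts gave 178.4 and 198.9. The groups overlapped, and in limma-trend the log2 fold change was -0.38 (unadjusted p = 0.43, n = 2 against 2 libraries, adjusted p = 1.00). In the villi *Ptgs1* had 90.4 normalized counts in Ctrl and 50.5 and 92.7 in cKO, so Ctrl lay between the cKO libraries. *Ptgs2* and *Gli1* were not analysed here. Set against the mesenchymal genes, there were 21.7 and 18.1 counts of *Ptgs1* per 1000 counts of the 7 fibroblast and matrix members in Ctrl crypts, and 16.9 and 13.6 in cKO crypts. This ratio was lower in both cKO crypts, while in the villi it was 48.0 in Ctrl and 23.6 and 50.5 in cKO. *Ptgs1* is also expressed outside the mesenchyme, in tuft cells for example, and the part of those cells in these values was not tested.

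The first comparison asked whether the mesenchymal RNA in the crypt libraries differed with genotype. Values are normalized counts, the read count of a gene divided by the size factor of its library, and fold changes are cKO against Ctrl on the scale log2(normalized count + 1). None of the 7 members passed either threshold. The study's own threshold, an unadjusted p under 0.01 with an absolute log2 fold change over 1, was passed upwards by 20 of 11554 genes (0.173%) and downwards by 1 (0.00866%). An adjusted p under 0.05 in limma-trend was reached by no gene (0%), and 73 genes had an unadjusted p under 0.05. The median log2 fold change of the members was 0.07, and that of all genes -0.01. The spread between replicates was wide: the higher replicate exceeded the lower by 1.47 to 2.60-fold in Ctrl and by 1.07 to 1.92-fold in cKO. With 2 libraries against 2, an exact permutation test cannot give a two-sided p under 0.333.

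Type I collagen was nearly level between the genotypes. *Col1a1* had 1624 and 742.6 normalized counts in Ctrl and 886.5 and 1544 in cKO. Both cKO values lay between those of Ctrl, with a mean of 1183 ± 623 in Ctrl (SD, n = 2) and of 1215 ± 465 in cKO (SD, n = 2). Its log2 fold change was 0.09 (SE 0.44). *Col1a2* had 2140 and 1015 normalized counts in Ctrl and 1116 and 2144 in cKO, with a log2 fold change of 0.07 (SE 0.45). In both chains 1 library of each genotype was about as high and 1 about as low as in the other genotype.

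Type III and type VI collagen gave the same picture. *Col3a1* had 3573 and 1899 normalized counts in Ctrl and 2434 and 3660 in cKO, a log2 fold change of 0.20 (SE 0.37). This was the highest fold change of the 7 members, and it is smaller than its error. *Col6a1* had 1081 and 415.9 normalized counts in Ctrl and 613.8 and 772.2 in cKO, with a log2 fold change of 0.04 (SE 0.46). Its Ctrl replicates differed by 2.60-fold, the widest gap of the 7 genes, and both cKO libraries lay between them.

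The proteoglycans differed from each other. *Dcn*, the member with the highest count in every crypt library, had 5819 and 3458 normalized counts in Ctrl and 3641 and 4385 in cKO. The groups overlapped, with a log2 fold change of -0.17 (SE 0.32). *Lum* had 217.4 and 147.6 normalized counts in Ctrl and 88.1 and 93.9 in cKO. *Lum* was the only member whose groups did not overlap, at 182.5 ± 49.3 in Ctrl (SD, n = 2) and 91.0 ± 4.06 in cKO (SD, n = 2). Among all genes 11.3% were lower in both cKO crypts and 9.73% were higher in both, so 1 of 7 members lower and 0 of 7 higher is close to the background. Its log2 fold change of -0.97 (SE 0.41) had an unadjusted limma-trend p of 0.053 and an adjusted p of 1.00, and it passed neither threshold. Without 1 library at a time the value ranged from -1.25 to -0.69. Per 1000 counts of *Dcn* there were 37.4 and 42.7 counts of *Lum* in Ctrl crypts and 24.2 and 21.4 in cKO crypts.

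Vimentin did not follow genotype either. *Vim* had 2398 and 1367 normalized counts in Ctrl and 1803 and 2005 in cKO, with both cKO libraries inside the range of Ctrl. Its log2 fold change was 0.07 (SE 0.32).

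**Figure D1:**
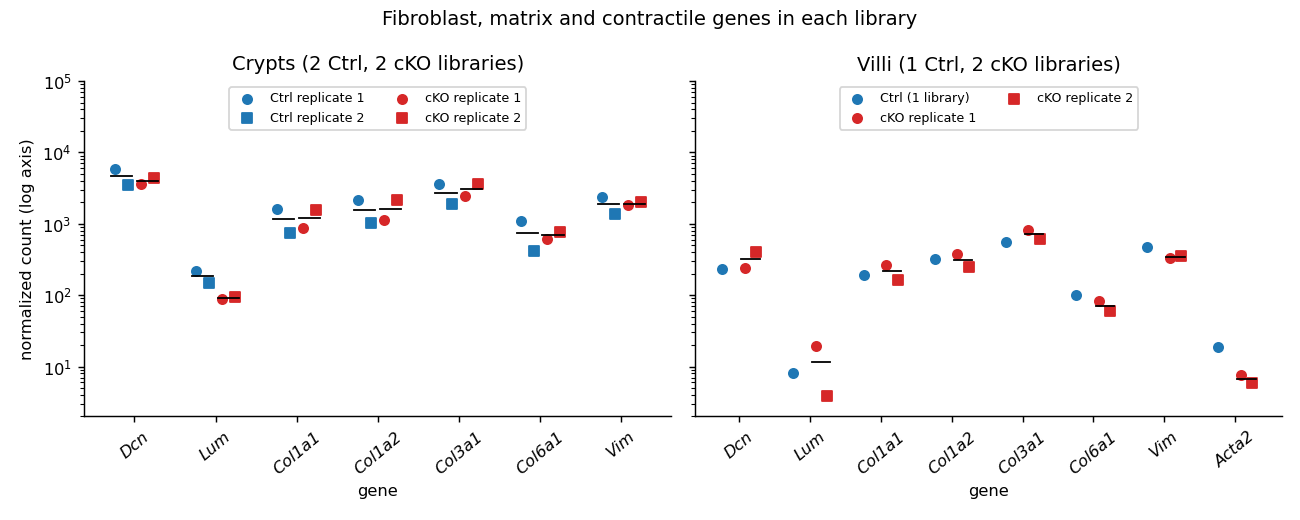
Normalized counts (log axis) of the listed members in each library, crypts on the left and villi on the right, with Ctrl in blue and cKO in red; circles are replicate 1, squares replicate 2, and black lines the mean of 2 libraries. In crypts the groups overlap for 6 of 7 genes, the exception being *Lum* at 217.4 and 147.6 in Ctrl against 88.1 and 93.9 in cKO.

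What the members shared was an order of libraries. Ctrl replicate 2 was the lowest of the 4 crypt libraries for 6 of 7 members, all but *Lum*, against 15.9% of all genes. Ctrl replicate 1 was the highest for 5 of 7 (*Dcn*, *Lum*, *Col1a1*, *Col6a1* and *Vim*), against 17.9% of all genes, and cKO replicate 2 was the highest for *Col1a2* and *Col3a1*. Measured as the log2 difference from each gene's mean over the 4 libraries, the median member stood at 0.50 in Ctrl replicate 1, -0.55 in Ctrl replicate 2, -0.22 in cKO replicate 1 and 0.18 in cKO replicate 2. The 2 extremes were thus both Ctrl libraries. Summed over the 7 members, Ctrl crypts had 918.0 and 476 CPM and cKO crypts 516 and 775 CPM, and the cKO values lay between those of Ctrl.

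The other stromal lists shared this order in part. Of the 9 listed collagens outside the members (of 13), Ctrl replicate 2 was lowest for 7 and Ctrl replicate 1 highest for 5. Of the 25 other matrix genes Ctrl replicate 2 was lowest for 8, and of the 7 fibroblast surface, niche and hedgehog genes for 2. In these last lists the lowest median deviation was that of cKO replicate 1, at -0.48 and -0.39. Immune markers (8 of 10 listed) were mixed. Their sum was 711 and 234 CPM in Ctrl crypts and 426 and 317 CPM in cKO crypts, and it was carried by *Cd74*, the invariant chain of class II antigen presentation, with 10229 and 1929 normalized counts in Ctrl and 6554 and 2248 in cKO. The median deviation of the immune list ran differently, at -0.23 and 0.30 in Ctrl and -0.74 and 0.56 in cKO, and Ctrl replicate 2 was lowest for 2 of 8. The T cell gene *Cd8a* had 119 and 381 normalized counts in Ctrl and 71.3 and 290.5 in cKO. Endothelial, pericyte and glial markers (2 of 19 listed, *Esam* and *Lyve1*) summed to 11.2 to 19.3 CPM over the crypt libraries. The part of leukocytes and vessels in the levels of *Vim* and the collagens was not tested.

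**Figure D2:**
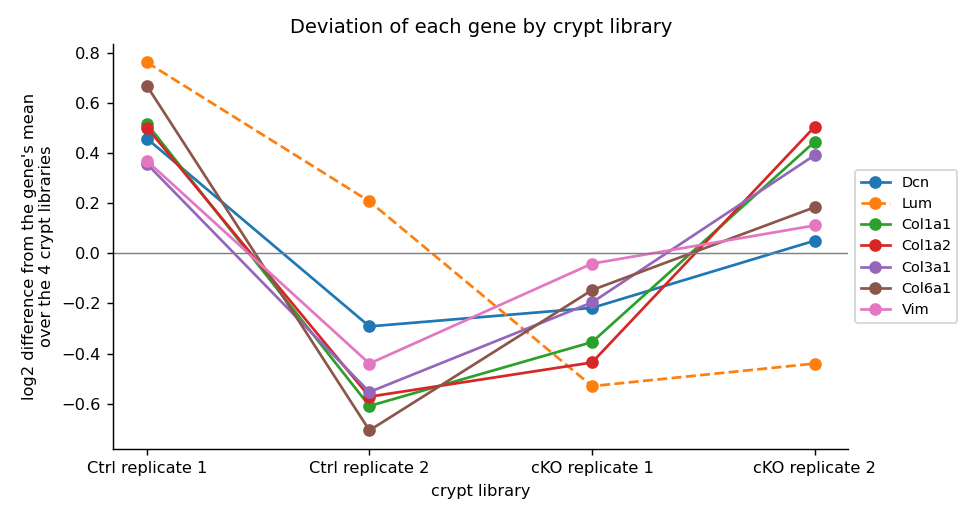
Log2 difference of each member from its own mean over the 4 crypt libraries, with 1 line per gene and the library on the horizontal axis. For 6 genes (solid lines) Ctrl replicate 2 is the lowest library, at a median of -0.55 over all 7 members, while *Lum* (dashed) is lowest in cKO replicate 1.

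One library also differed by transcript length. In cKO replicate 1 of the crypts, long transcripts were low and short ones high against the mean of the other 3 libraries. Genes within 20% of the length of *Col1a1* (longest transcript 5930 bases) had a median log2 difference of -0.44 there, and *Col1a1* itself had -0.47. For *Col1a2* the pair of values was -0.36 for genes of like length and -0.58 for the gene, for *Col3a1* -0.39 and -0.26, and for *Dcn* -0.23 and -0.29. *Lum*, with the shorter transcript of 2448 bases, had -0.71 where genes of its length had 0.25. After the length trend was subtracted in each library, the log2 fold change of *Lum* was -1.05 and the median of the 7 members 0.09.

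In the villi the members were sparse, and the comparison had 1 Ctrl library without a replicate check. Both cKO libraries lay above Ctrl for 2 of 8 members and below it for 3 of 8. Among all genes 43.7% had both cKO libraries above and 44.2% both below, so neither count of members exceeded its background. The median log2 difference of cKO from Ctrl was 0.03 over the 8 members and -0.01 over all genes. An edgeR quasi-likelihood fit of the recovered reads, which assumes that the lone Ctrl library varied like the cKO libraries, called 33.6% of all genes at an adjusted p under 0.05 and 0 of the 8 members. The lowest adjusted p among the members was 0.079, for *Vim* (unadjusted p = 0.033), and *Vim* was the only one with an unadjusted p under 0.05.

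Among the collagens of the villi, *Col3a1* had 558.3 normalized counts in Ctrl and 807.4 and 612.4 in cKO, with a log2 difference of 0.33 (edgeR adjusted p = 0.23). *Col6a1* went the other way, with 101.9 in Ctrl and 81.8 and 59.9 in cKO, a log2 difference of -0.54 (edgeR adjusted p = 0.25). *Col1a1* had 188.8 normalized counts in Ctrl and 266.1 and 163.2 in cKO. *Col1a2* had 320.9 in Ctrl and 383.0 and 245.3 in cKO. For both chains of type I collagen, Ctrl therefore lay between the cKO libraries, and the cKO libraries differed by 1.63-fold and 1.56-fold.

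The proteoglycans were uneven in the villi. *Dcn* had 231.7 normalized counts in Ctrl and 240.8 and 399.9 in cKO, with both cKO libraries above Ctrl but replicate 1 by little. Its log2 difference was 0.42 (edgeR adjusted p = 0.28). *Lum* rested on 7 reads in Ctrl and on 25 and 4 reads in cKO, and at this depth no difference was detectable, since the cKO libraries lay on both sides of Ctrl.

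*Vim* had 473.8 normalized counts in the Ctrl villi and 336.4 and 352.5 in cKO, a log2 difference of -0.46. This difference depended on the scale: as CPM, *Vim* was 28.04 in Ctrl and 27.93 and 27.08 in cKO. *Acta2* was the 1 contractile member with a value, with 16 reads in Ctrl and 10 and 6 reads in cKO. In CPM this was 1.10 (95% Wilson interval 0.68 to 1.78), 0.63 (0.34 to 1.17) and 0.45 (0.20 to 0.97), and the intervals, which cover counting error only, overlapped. Its log2 difference of -1.35 on the normalized scale had an edgeR adjusted p of 0.14.

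The villus values moved with the scaling. In normalized counts the median member differed by 0.03, in CPM by 0.43, and after each library was scaled to its epithelial list by 0.62, while the median of all genes stood at -0.01, 0.42 and 0.59. Relative to the median of all genes, the median member thus stood at 0.03, 0.02 and 0.03 under these 3 scalings. Each of them shifts all genes of a library by nearly the same log2 amount. This near equality was therefore set in advance and does not show that the level is stable. Of the 10 epithelial genes, 8 had both cKO libraries below Ctrl in normalized counts and 2 had both above. That list is therefore no level reference between the genotypes here. Summed over the 8 members, the Ctrl villus library had 113 CPM (95% Wilson interval 107 to 118) and the cKO libraries 178 (171 to 185) and 142 (135 to 148). In CPM both cKO sums lay above Ctrl beyond counting error, in the scale in which the median gene also stood higher. In normalized counts the 7 fibroblast and matrix members summed to 1884 in Ctrl and 2135 and 1837 in cKO. Ctrl lay between the cKO libraries on that scale. Counting error leaves out the spread between libraries, and Ctrl was 1 library. The summed immune markers (10 of 10 listed) were lower in both cKO libraries, with 1474 CPM in Ctrl and 599 and 589 in cKO. Both cKO libraries lay below Ctrl in normalized counts for 7 of these 10 genes and above it for 1, *Ptprc*. Among all genes 44.2% lay below and 43.7% above in both. The part of the immune genes' cells in the level of *Vim* was not tested.

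Transcript length bore on the villi as well. Genes within 20% of the length of *Col1a1* had a median log2 difference from Ctrl of 0.53 in cKO replicate 1 and 0.47 in cKO replicate 2, and *Col1a1* had 0.49 and -0.21. For *Col3a1* genes of like length had 0.46 and 0.40, and the gene 0.53 and 0.13. For *Acta2*, with 2035 bases, genes of like length had -0.40 and -0.37, and the gene -1.18 and -1.52. In cKO replicate 2, *Dcn* at 0.78 was the only member above genes of its length, at 0.24. With the length trend subtracted, the median member was at -0.38 and the median of all genes at -0.02.

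**Figure D3:**
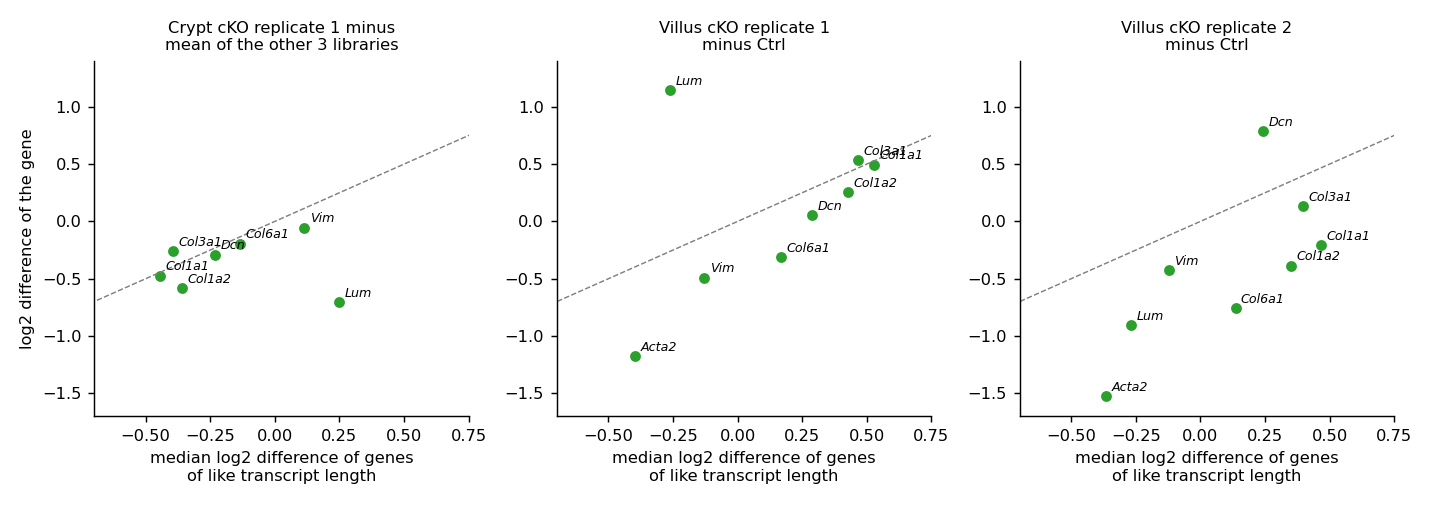
Log2 difference of each member (vertical axis) against the median log2 difference of all genes within 20% of its transcript length (horizontal axis), for crypt cKO replicate 1 against the other 3 crypt libraries and for each villus cKO library against Ctrl. The dashed line marks equality. Long collagens such as *Col1a1* lie near it in the first 2 panels, at -0.47 against -0.44 and 0.49 against 0.53, and *Lum* lies apart in both.

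For the 7 members with values in both tissues, the CPM was higher in crypts than in villi. The 2 tissues were normalized separately, so their levels were set side by side as CPM, with no test. In Ctrl, *Dcn* had 317 and 182 CPM in crypts and 13.7 in villi, an 18.2-fold ratio of the means. *Lum* had 11.8 and 7.76 CPM in crypts and 0.48 in villi, 20.4-fold. The collagens and *Vim* differed less, from 3.61-fold for *Vim* through 4.46-fold for *Col3a1* and 5.71-fold for *Col1a1* to 6.69-fold for *Col6a1*. The median of all genes in both tables was itself 2.27-fold higher in Ctrl crypts, and the median member 5.71-fold.

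In cKO mice the ratios were smaller for every member, and so was the median over all genes, which was 2.27-fold in Ctrl. The share of all genes with a smaller ratio in cKO was not computed. *Dcn* had 178 and 233 CPM in cKO crypts and a mean of 25.4 CPM in cKO villi, from 315 and 414 reads, an 8.09-fold ratio, and *Lum* 4.93-fold. *Col3a1* was 2.74-fold higher in crypts, *Col1a1* 3.62-fold, *Col6a1* 6.23-fold and *Vim* 3.53-fold, with the median of all genes at 1.56-fold. Ranked among the genes with a ratio, *Dcn* stood above 97.2% of genes in Ctrl and above 98.6% in cKO. *Lum* stood above 97.9% in Ctrl and 94.3% in cKO, the 1 member with a lower rank in cKO. Its villus values rest on 7 reads in Ctrl and on 25 and 4 reads in cKO. *Col3a1* stood above 72.9% and 79.6%, *Vim* above 66.5% and 87.7%, and *Col6a1* above 84.2% and 97.1%. Each library of the crypts exceeded each library of the villi for all 7 members in both genotypes. How many of all genes separate in this way was not computed, and the median gene was itself higher in crypts. The difference of these ratios between genotypes was not tested, since it turns on 1 Ctrl villus library.

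**Figure D4:**
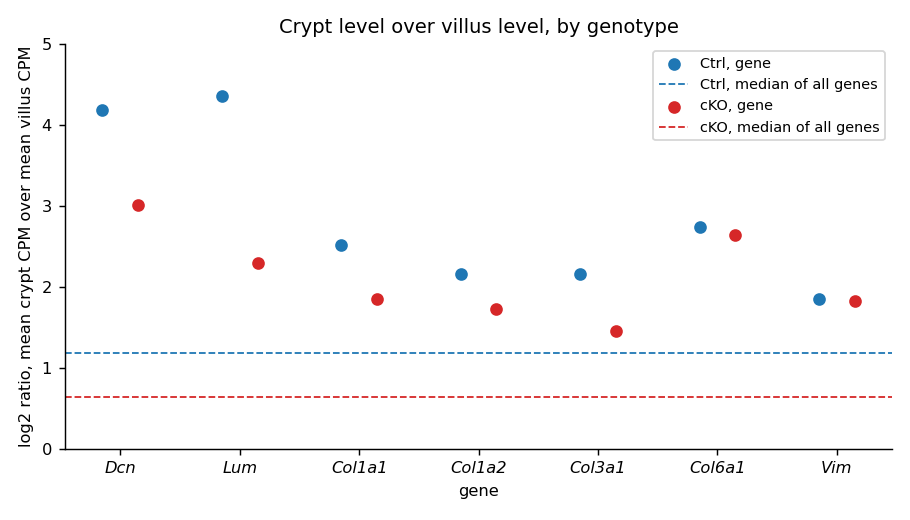
Log2 ratio of the mean crypt CPM to the mean villus CPM for the 7 members listed in both tissues, Ctrl in blue and cKO in red, with dashed lines at the median of all genes. All points lie above their line (2.27-fold in Ctrl and 1.56-fold in cKO as plain ratios), and *Dcn* and *Lum* lie highest in Ctrl. The Ctrl villus value of *Lum* rests on 7 reads.

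The make-up of the mesenchymal reads also differed between crypts and villi. *Dcn* made up 34.5% and 38.2% of the reads of the 7 members in Ctrl crypts and 34.4% and 30.0% in cKO crypts, but 12.3% in the Ctrl villi and 11.3% and 21.8% in the cKO villi. *Col3a1* made up 21.0% to 25.1% in crypts and 29.6% to 37.8% in villi. The ratio of *Dcn* to *Col3a1* was 1.63 and 1.82 in Ctrl crypts and 1.50 and 1.20 in cKO crypts, and 0.41 in Ctrl villi and 0.30 and 0.65 in cKO villi. No crypt library overlapped a villus library in this ratio. The ratio of the 2 chains of type I collagen did not overlap between the tissues either: *Col1a1* over *Col1a2* lay between 0.72 and 0.79 in the 4 crypt libraries and between 0.59 and 0.69 in the 3 villus libraries. The villus ratios rest on 163 to 348 reads of *Col1a1* and 254 to 501 of *Col1a2*. Their counting error was not computed, so this narrow gap may lie within it.

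**Figure D5:**
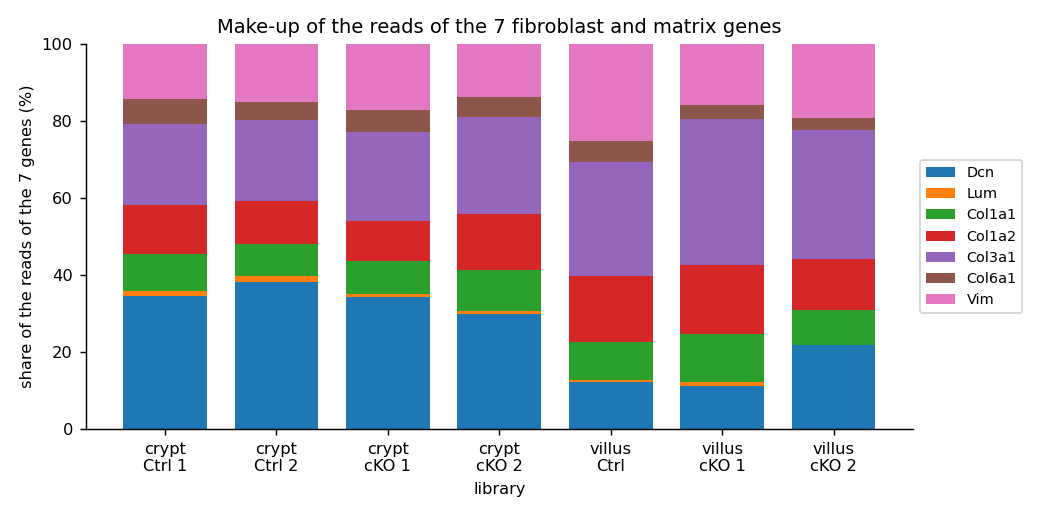
Share of the reads of the 7 fibroblast and matrix members taken by each gene, in percent, with 1 bar per library. *Dcn* (lowest segment) takes 30.0% to 38.2% in the crypts and 11.3% to 21.8% in the villi.

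Levels between genes were compared per kilobase of the longest transcript. In Ctrl crypts the order was *Dcn* at 989 ± 356 normalized counts per kilobase (SD, n = 2), *Vim* at 643 ± 249, *Col3a1* at 492 ± 213, *Col1a2* at 295 ± 149, *Col1a1* at 199.5 ± 105, *Col6a1* at 183 ± 115 and *Lum* at 74.6 ± 20.2. Neighbours in this order overlapped between their libraries in Ctrl, apart from *Col6a1* and *Lum*. In cKO crypts the order was the same, with *Dcn* at 855 ± 112 and *Lum* at 37.2 ± 1.66. There *Dcn* and *Vim*, *Col3a1* and *Col1a2*, and *Col6a1* and *Lum* did not overlap. In the Ctrl villi *Vim* came first at 162 normalized counts per kilobase, before *Col3a1* at 100.3, *Col1a2* at 60.0 and *Dcn* at 49.4, with *Acta2* at 9.11 and *Lum* at 3.31 last. The place of *Dcn* depends on its transcript: on the shortest principal transcript of 1758 bases, in place of 4692, it came second in the Ctrl villi at 132.

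Genes whose pattern was most like the members' mean were sought among 8341 genes with at least 100 normalized counts in both tables, by the root mean square of the log2 difference over the 7 libraries, each table centred. The 5 nearest that are no members were *H6pd* (0.16), *Clk3* (0.16), *Ppm1h* (0.17), *Pofut2* (0.18) and *Cry2* (0.18). The members themselves stood at 0.15 (*Col1a1*), 0.16 (*Col1a2* and *Col3a1*), 0.21 (*Col6a1*), 0.23 (*Vim*), 0.36 (*Dcn*) and 0.55 (*Lum*). Each member is part of the mean it is measured against, so these distances cannot be compared with those of other genes. *Lum* and *Col6a1* entered that mean although their own villus means were under 100 normalized counts. The profile was 0.52, -0.42, -0.27 and 0.18 in the crypt libraries Ctrl 1, Ctrl 2, cKO 1 and cKO 2.

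The other genes of the mesenchyme were described from lists chosen with earlier results of these data known. In the crypts 0 genes of these lists passed the study's threshold. The other collagens (9 of 13 listed) had a median log2 fold change of 0.09, the other matrix proteins and enzymes (25 of 30) -0.14, and the fibroblast surface, niche and hedgehog genes (7 of 24) -0.24, beside -0.01 for all genes. Of the 25 matrix genes 2 were lower in both cKO crypts, *Efemp1* and *Prelp*, and 0 were higher in both, beside 11.3% and 9.73% of all genes, so neither count exceeded its background.

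Among the other collagens, *Col6a2*, the partner chain of *Col6a1*, had 697 and 449 normalized counts in Ctrl crypts and 479 and 717 in cKO. Basement membrane *Col18a1* had 287 and 173 in Ctrl and 228 and 198 in cKO, and *Col5a2*, a minor fibre collagen, 281 and 88.2 against 189.9 and 149. All 3 overlapped between genotypes, with log2 fold changes of 0.07, -0.07 and 0.09.

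Among the matrix glycoproteins, *Fn1* (fibronectin) had 1555 and 1551 normalized counts in Ctrl crypts and 784 and 4488 in cKO, so that the cKO libraries lay on either side of Ctrl. *Fbln1* (fibulin 1) had 1320 and 1708 against 1102 and 1386, and *Sparc*, which binds collagen, 1514 and 494 against 933 and 993. *Sparc* had the order of libraries of the collagens, and *Fn1* and *Fbln1* did not. In the villi *Sparc* had 478 normalized counts in Ctrl and 213 and 266 in cKO. *Fbln1* had 2784 there in Ctrl and 2302 and 1741 in cKO, and *Fn1* 1314 against 1317 and 1002. As CPM, *Fbln1* was higher in every villus library than its crypt mean of 72.3, unlike the members. Of the 22 matrix genes listed there, 10 had both cKO libraries below Ctrl and 6 both above, beside 44.2% and 43.7% of all genes, and Ctrl was 1 library.

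Among the fibroblast surface, niche and hedgehog genes, *Ptch1*, a hedgehog receptor and target that is induced together with *Gli1*, had 666 and 683 normalized counts in Ctrl crypts and 355 and 684 in cKO. In the villi it had 33.6 in the lone Ctrl library and 84.9 and 68.6 in cKO. *Cd34*, found on fibroblasts and endothelium, had 544 and 279 in Ctrl crypts against 274 and 398, and *Pdpn* (podoplanin) 260 and 95.4 against 208 and 206. *Pdpn* and *Cd34* overlapped between the genotypes in crypts.

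The smooth muscle list (8 of 16 listed in crypts, 9 in villi) was led by genes that epithelium expresses too. *Ckb*, a creatine kinase, had 5697 and 5302 normalized counts in Ctrl crypts against 7238 and 5508, and *Tpm1*, a tropomyosin, 4709 and 5199 against 6672 and 4816. *Mylk*, the myosin light chain kinase, had 1982 and 1741 in Ctrl crypts and 1583 and 1666 in cKO. The sum of this list, 734 to 860 CPM in crypts, spanned 1.17-fold where the members spanned 1.93-fold. In the villi the sum was 1863 CPM in the lone Ctrl library and 1319 and 1299 in cKO. There 6 of the 9 genes lay below Ctrl in both cKO libraries and 1 above, beside 44.2% and 43.7% of all genes. The defining smooth muscle genes *Myh11*, *Cnn1* and *Actg2* were not analysed here. With the low reads of *Acta2*, the contractile side of the mesenchyme is covered by these data in small part.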

How the data were processed

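RNA of small intestinal crypts and villi was sequenced by the authors in 2 biological replicates per group. The labels name an RNeasy kit of Mei5 Biotech and the NEBNext Ultra library kit, whereas the methods name a Qiagen kit and the NuGEN Ovation V2 system. Reads were aligned by the authors to mm10 with STAR. The counting program, strand setting and annotation are not given in the sources used here. The authors deposited 1 table per tissue whose signal values are gene counts divided by a DESeq2 size factor per library. The tables also hold the authors' fold changes and p-values, which were not used. Columns of other samples numbered 0.

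All values were whole multiples of 1 step per library (100%, tolerance 0.01 of a step), which was taken as 1 read. CPM is the share of a library's reads on listed genes. In villi genes were seen down to 1 read. In crypts the smallest value was 3 to 8 steps, so there no count test was run.

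For the crypts limma-trend was run in R 4.3.3 with limma 3.58.1. It took log2(value + 1) of every gene whose mean was 1 or more, two-sided and without a block, with Benjamini-Hochberg adjustment over 11554 genes. Villi were given as values, since the 2 Ctrl columns were identical and counted once. An edgeR 4.0.16 quasi-likelihood fit of the villus reads was added after the data were seen. Nothing says that replicates came from separate animals beyond the words biological replicates, so p-values measure the spread between these libraries. Transcript lengths came from GENCODE M21 for 11546 crypt and 12692 villus genes, and length trends were lowess curves with a span of 0.3. Counting intervals are Wilson intervals. The scripts were tested on simulated data. Alternatives were a replicate block, library size or epithelial list scaling, at least 10 reads, no filter, a pseudocount of 0.1, length correction and leaving out each library. The alternative of comparing levels per shortest principal transcript was also added after the data were seen.

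The members and lists were chosen with earlier results of these data known. Named were the 10 members, the deleted genes and the driver, in each other list the genes called in crypts and the 3 with the highest mean CPM there, and the 5 genes nearest in pattern. *Efemp1*, *Prelp*, *Cd8a*, *Ptprc* and the smooth muscle genes *Myh11*, *Cnn1* and *Actg2* were named after their values were seen.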

Additional observations from a re-analysis of the deposited data

Results flagged for a closer look

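For 3 named genes both cKO libraries lay on one side of Ctrl in the crypts and on the other side in the villi, where Ctrl is 1 library. *Mylk* had a log2 fold change of -0.19 in crypts and a log2 difference of 0.67 in villi. *Lyz2*, a gene of macrophages and related cells, had 1.20 in crypts and -1.04 in villi. *Krt8*, an epithelial keratin, had 0.51 in crypts and -1.23 in villi. None of the 7 members with values in both tissues behaved in this way. The difference between tissues was not tested for these genes, and in crypts none of the 3 passed a threshold. As a background, both cKO crypts exceeded both Ctrl crypts for 9.73% of listed genes and fell short of both for 11.3%. In the villi 43.7% of listed genes had both cKO libraries over the lone Ctrl library, and 44.2% had both under it. The share of genes that change sides between the tissues was not computed, so these 3 cannot be said to exceed it.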

How the results depend on the processing

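None of the members passed a threshold in crypts under any alternative run. Over all genes, 63 were called higher, 15 lower and 34 at an adjusted p under 0.05 with the replicate block, against 20, 1 and 0 without it. The numbers share no stated litter or day. The deviations of same-numbered crypt libraries from their group means correlated at 0.25 across 11554 genes. With 2 replicates per group, the pair numbered 2 mirrors the pair numbered 1, so this is 1 contrast. With the block no member was called. Scaling by library size called 18 higher and 4 lower, and scaling by the epithelial list 11 higher and 3 lower. Length correction called 22 higher and 4 lower, and length correction with the block 27 higher and 6 lower. Leaving out 1 library gave 15 to 593 higher, 3 to 288 lower and 0 to 1987 at an adjusted p under 0.05. The upper ends, 593, 288 and 1987, are those without cKO replicate 2. Without Ctrl replicate 2 the adjusted count was 4.

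Small member fold changes in crypts turned sign. Scaled by library size, *Col1a2* was at -0.0033, *Col6a1* at -0.035 and *Vim* at -0.0025, where the median of all genes was -0.08. Scaled by the epithelial list, *Col1a1* was at -0.14, *Col1a2* at -0.16, *Col3a1* at -0.032, *Col6a1* at -0.19 and *Vim* at -0.16, where the median of all genes was -0.24. That list itself took 10845 and 10958 CPM in Ctrl crypts and 15428 and 10403 CPM in cKO crypts. Leaving out 1 library gave -0.54 to 0.21 for *Dcn*, -0.47 to 0.66 for *Col1a1*, -0.47 to 0.61 for *Col1a2*, -0.26 to 0.65 for *Col3a1*, -0.65 to 0.73 for *Col6a1* and -0.33 to 0.48 for *Vim*, and -0.47 to 0.61 for their median. *Lum* was lower in cKO throughout.

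In villi the median member moved from 0.03 to 0.43 by library size, 0.62 by the epithelial list and -0.38 by length correction, and lay at -0.41 without cKO replicate 1 and 0.16 without cKO replicate 2. The contractile member alone summed to 1.10, 0.63 and 0.45 CPM in Ctrl and the cKO libraries. The cause of these shifts was not tested. The planned edgeR and DESeq2 fits of crypt reads were not run. Depth limits *Lum* and *Acta2* in villi, at 4 to 25 reads a library.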
